A study of Mus musculus with 8 samples.

Results

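SOX genes encode transcription factors that bind DNA through a shared domain, the HMG box. The 10 genes described here are Sox9, Sox4, Sox11, Sox12, Sox13, Sox5, Sox6, Sox2, Sox10 and Sox18, taken by name from a list made with earlier results of these data known. All 10 were measured, among 22180 genes with a probe set (a group of array probes read together) that names that gene alone. Where several such probe sets name a gene, the 1 with the highest mean signal stands for it. Sox4 has more than 1 such probe set and the other 9 members have 1 each.

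Expression was measured on Affymetrix arrays, 1 array per line, in 8 clonal cell lines from mouse liver tumours of C57BL/6 mice. The 4 intrahepatic cholangiocarcinoma (ICC, bile duct type cancer) lines are ICC9 and ICC10, labelled female, and ICC2.7 and ICC2.9, labelled male. The 4 hepatocellular carcinoma (HCC, hepatocyte type cancer) lines are HCC1 and HCC4, labelled male, and HCC2.1 and HCC2.4, labelled female. All 8 lines share the same drivers, c-Myc and NrasG12V, carried by the pCaMIN vector, and the series title names transformed hepatocytes as their origin. Culture was untreated, in DMEM medium with fetal calf serum (10% FCS) at 7.5% CO2. The vector was delivered by focal in vivo electroporation for ICC and by hydrodynamic tail-vein injection for HCC, so tumour type and route cannot be told apart. Each line is 1 clone grown without the other cells of the tumour, and the labels do not say which lines share an animal. A p-value therefore reflects no more than the spread among the 8 lines, part of which may be technical. In the interaction fit and the fits of a single sex, it reflects only the spread between the 2 lines of the same type and sex. In the label check, Xist measured 11.26 to 11.59 in female-labelled and 4.02 to 4.64 in male-labelled lines, and the Y-linked genes Kdm5d, Eif2s3y and Uty measured 3.28 to 4.37 and 7.59 to 8.51. The values are log2 RMA signals (RMA is a method that summarises the probes of a set), so a difference of 1 is a doubling of signal, and a level of 1 probe set cannot be set against the level of another. The 8 columns hold only 7 independent directions to within rounding. The direction that is missing from them weighs ICC9 most, at 0.78, followed by ICC10 at -0.54. To within rounding, ICC9 can therefore be computed from the other 7 lines, while the main fits take the 8 columns as independent.

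SOX proteins bend DNA at their sites and act with partner factors. The family falls into groups with closely related HMG boxes: Sox9, Sox10 and Sox8 form the SoxE group, Sox4, Sox11 and Sox12 the SoxC group, Sox5, Sox6 and Sox13 the SoxD group, Sox2 belongs to SoxB and Sox18 to SoxF. In the liver Sox9 marks bile duct cells and duct-like progenitors, lies downstream of Notch and Hippo signalling, and appears in hepatocytes that take on duct features. The comparison of ICC with HCC lines asks how these genes stand in lines of different tumour type that share a hepatocyte origin and their oncogenes.

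Sox9 was uniform across the lines, and none of the 10 genes passed the threshold between ICC and HCC lines in the model of type alone. Sox5, a SoxD factor, showed the largest difference between the types, 2.15-fold higher in ICC lines on average, with no overlap between the types. Sox4 (in the probe set used), Sox11 and Sox2 overlapped between the types and varied widely over the lines. Over the 8 lines, 4 of the 10 genes (Sox2, Sox5, Sox11 and Sox4) had a range of at least 1 log2 unit, against 16.3% of all genes. Of the other 10 genes of the family 0 had such a range. Since the members were chosen with earlier results known, these counts describe the lists and not a trait of the SOX family. The median range was 0.67 log2 units over the 10 members and 0.57 over all genes.

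**Figure D1:**
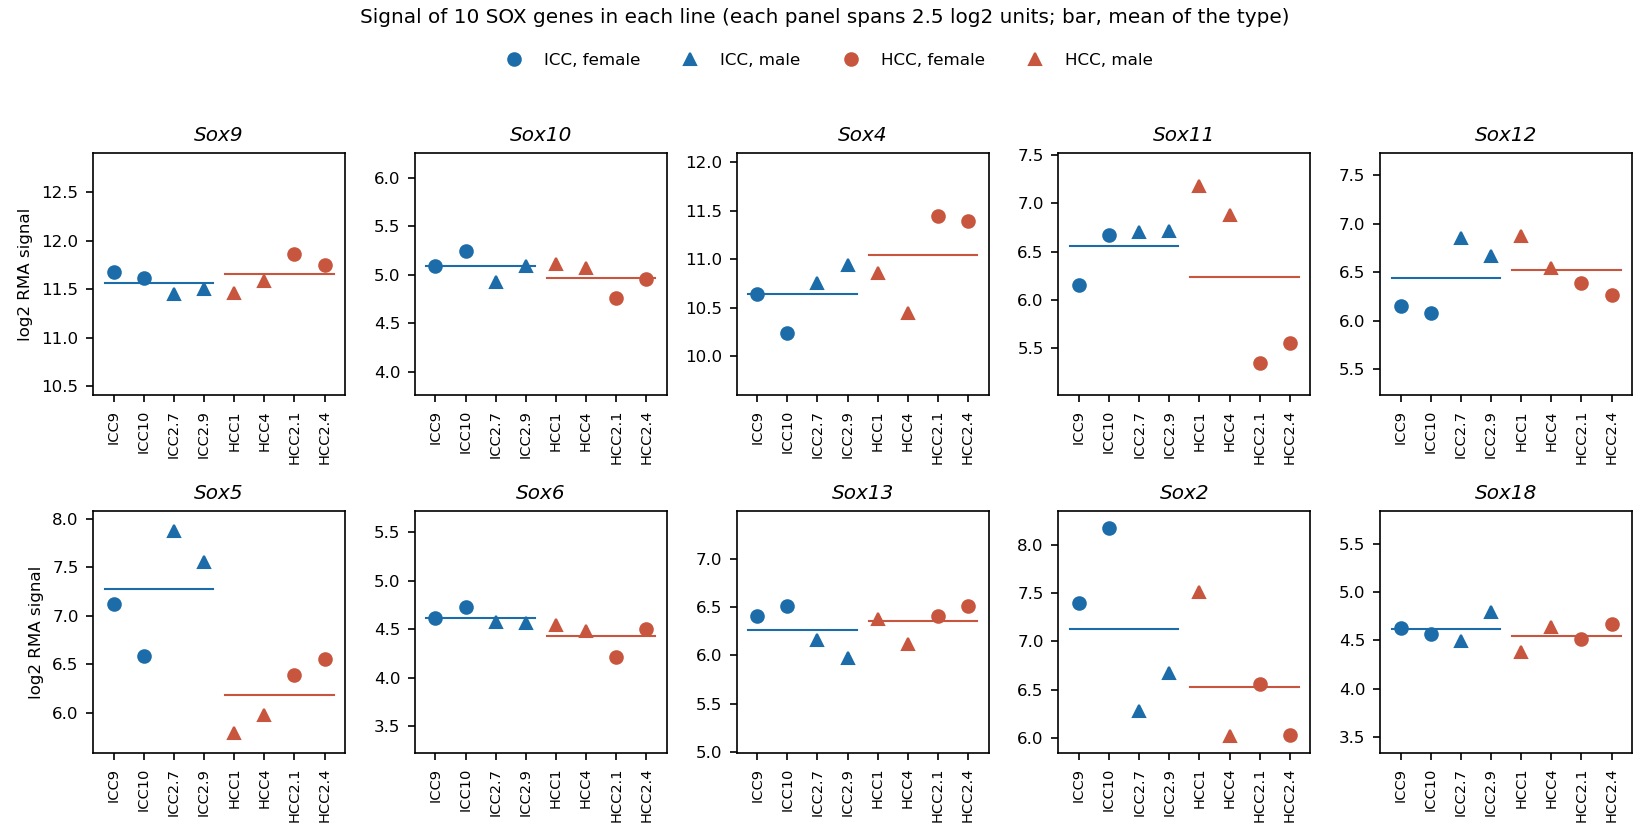
Log2 RMA signal (y axis) of the 10 SOX genes in each of the 8 lines (x axis), with ICC lines in blue, HCC lines in red, female-labelled lines as circles, male-labelled lines as triangles and the mean of each type as a bar. Every panel spans the same number of log2 units; the points of Sox9 lie between 11.45 and 11.86, while those of Sox2, Sox5, Sox11 and Sox4 are spread over ranges of 2.15, 2.08, 1.83 and 1.21.

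Limma, a moderated linear model fitted over all 22180 genes with Benjamini-Hochberg adjustment, called 0 of the 10 members between ICC and HCC lines at an adjusted p under 0.05, where it called 0.261% of all genes. At an unadjusted p under 0.05 stood 1 member, Sox5, against 14.1% of all genes. ICC and HCC lines did not overlap in 2 members, Sox5 and Sox6, against 8.63% of all genes in either direction; both were higher in ICC lines, as were 4.19% of all genes. The difference was positive (ICC higher) in 6 members and negative in 4, with a median of 0.09 log2 units against 0.00 over all genes. The median absolute difference was 0.15 against 0.13.

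**Figure D2:**
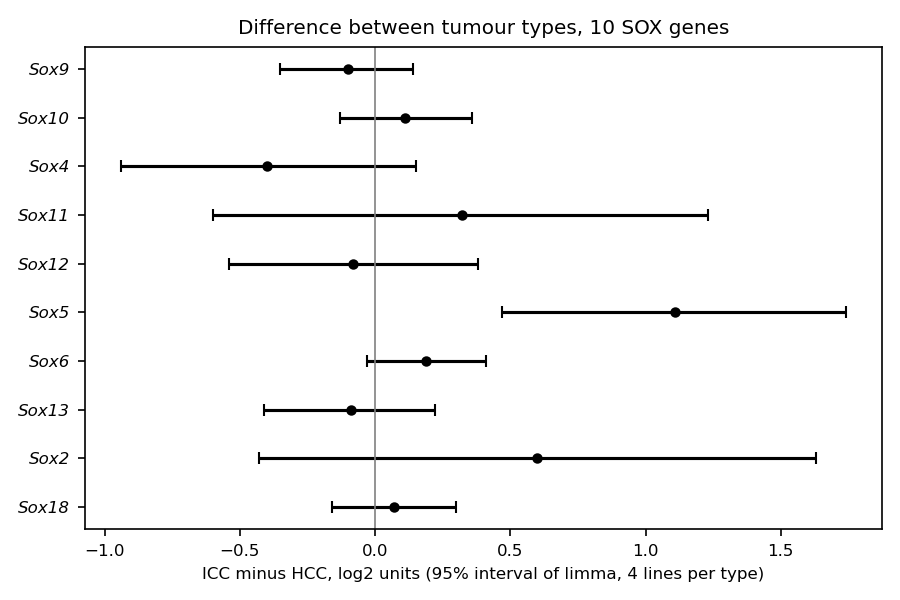
Difference of ICC minus HCC lines in log2 units (x axis) for each of the 10 SOX genes (y axis), with the 95% interval of limma from 4 lines per type. The interval of Sox5 (0.47 to 1.74) excludes 0 before adjustment for the number of genes tested, and the other 9 include 0.

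Start-region sequence was matched by symbol in the RefSeq table of promoters (GRCm38.p6, from 250 bases before to 50 after a gene's start) for 7 of the 10 members. The 4 members with a range of at least 1 log2 unit are printed, since their signal differs most between lines. Capitals mark 2 motifs searched on both strands: CCAAT, the site of the factor NF-Y (ATTGG on the other strand), and GGAATG, the core site of the TEAD factors that carry Hippo signalling (CATTCC on the other strand).
Sox5, chr6:143947057-143947356, minus strand: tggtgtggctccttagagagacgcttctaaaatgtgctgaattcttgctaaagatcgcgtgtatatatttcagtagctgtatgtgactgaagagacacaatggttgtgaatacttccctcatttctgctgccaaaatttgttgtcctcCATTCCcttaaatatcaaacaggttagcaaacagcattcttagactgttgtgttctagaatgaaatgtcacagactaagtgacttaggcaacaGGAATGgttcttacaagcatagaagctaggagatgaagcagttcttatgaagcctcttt
Sox4, chr13:28953650-28953949, minus strand: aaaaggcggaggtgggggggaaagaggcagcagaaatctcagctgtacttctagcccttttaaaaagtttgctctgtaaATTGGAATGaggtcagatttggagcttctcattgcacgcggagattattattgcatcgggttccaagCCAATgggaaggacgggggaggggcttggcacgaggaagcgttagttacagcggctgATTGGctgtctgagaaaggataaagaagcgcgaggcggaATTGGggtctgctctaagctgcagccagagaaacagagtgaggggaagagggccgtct
Sox11, chr12:27342669-27342968, minus strand: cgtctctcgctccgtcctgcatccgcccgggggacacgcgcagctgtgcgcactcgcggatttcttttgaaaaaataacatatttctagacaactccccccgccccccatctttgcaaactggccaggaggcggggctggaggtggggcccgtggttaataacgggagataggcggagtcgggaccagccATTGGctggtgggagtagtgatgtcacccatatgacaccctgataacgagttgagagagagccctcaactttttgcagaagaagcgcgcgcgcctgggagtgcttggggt
Sox2, chr3:34649745-34650044, plus strand: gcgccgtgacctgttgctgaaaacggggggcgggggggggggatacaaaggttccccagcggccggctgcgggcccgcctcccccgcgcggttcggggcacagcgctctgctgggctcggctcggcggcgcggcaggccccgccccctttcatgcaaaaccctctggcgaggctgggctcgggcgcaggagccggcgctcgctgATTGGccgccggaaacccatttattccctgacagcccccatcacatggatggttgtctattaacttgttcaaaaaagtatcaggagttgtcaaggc
The Sox5 window held 2 matches to GGAATG, a count of 2 or more that is found in 1.36% of the 32851 windows of this length, while 14.7% hold at least 1. The Sox4 window held 1 match to GGAATG, overlapping a CCAAT match, and 4 matches to CCAAT. The Sox11 and Sox2 windows each held 1 CCAAT match, which 37.4% of all windows hold. The other motifs searched were the Myc E-box CACGTG (7.15% of windows), the RBPJ motif of Notch signalling GTGGGAA (6.38%), the SOX motif AACAAT (10.7%), TATAAA (13.6%) and the SP1 motif GGGCGG (35.7%), all on both strands. GGGCGG, not capitalised here, had 2 matches each in the Sox11 and Sox2 windows and 0 in the Sox5 and Sox4 windows. None of the 4 printed windows holds the E-box, RBPJ, SOX or TATA motif. The start used for Sox5 lies inside the annotated span of the gene, not at its upstream end, and its window had a G and C content of 39.7%, against 52.0% for Sox4, 58.7% for Sox11, 66.3% for Sox2 and a median of 52.7% over all windows. These are matches of letters only.

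In the SoxE group, Sox9 stayed within a range of 0.41 log2 units. It measured 11.68 in ICC9, 11.62 in ICC10, 11.45 in ICC2.7 and 11.50 in ICC2.9, and 11.46 in HCC1, 11.59 in HCC4, 11.86 in HCC2.1 and 11.75 in HCC2.4. The types overlapped, with a mean of 11.56 ± 0.11 for ICC and of 11.66 ± 0.18 for HCC (SD over 4 lines each). The ICC minus HCC difference of -0.10 had a 95% interval from -0.35 to 0.14 (limma, adjusted p = 0.715). Across the sexes Sox9 did not overlap: the 4 female-labelled lines measured 11.62 to 11.86 and the 4 male-labelled lines 11.45 to 11.59, a difference of 0.23 (SE 0.08) that did not pass over all genes (limma, adjusted p = 0.177). Sox10, a neural crest and glial regulator, measured 5.09 ± 0.13 in ICC and 4.97 ± 0.16 in HCC lines, with all 8 lines between 4.76 and 5.25. Sox8, the remaining SoxE gene, lay between 5.38 and 5.71.

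By the rule set for naming similar genes, the 3 genes most like Sox9 over the 8 lines were Dapk1, a death-associated kinase (Pearson r = 0.969), Sprr1b, a squamous epithelial protein (r = 0.955), and Aifm2, a suppressor of ferroptosis (r = 0.953). They were picked from 2197 genes with a mean above the median gene and a range of at least 1 log2 unit, so high values of r are built into the choice. Dapk1 measured 7.56 in both HCC2.1 and HCC2.4, 6.24 in ICC9, 5.80 in HCC4, 5.72 in ICC10 and 4.15 to 4.43 in HCC1, ICC2.7 and ICC2.9. The order of the lines is close to that of Sox9, while the range of Dapk1 is far wider than the 0.41 of Sox9. Lines of 1 type and sex resemble each other, so the 8 points are not independent and no p is given.

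In the SoxC group, whose members are active in progenitors and in many carcinomas, Sox4 was highest and Sox11 lowest in the female-labelled HCC lines. Sox4 measured 10.64 in ICC9, 10.24 in ICC10, 10.75 in ICC2.7 and 10.94 in ICC2.9, and 10.86 in HCC1, 10.45 in HCC4, 11.45 in HCC2.1 and 11.40 in HCC2.4. HCC2.1 and HCC2.4 were the highest of the 8 lines, and HCC1 and HCC4 lay among the ICC lines. The difference between the types was -0.40 (SE 0.24, limma, adjusted p = 0.498). Sox11 measured 6.15 in ICC9, 6.67 in ICC10, 6.70 in ICC2.7 and 6.71 in ICC2.9, and 7.18 in HCC1, 6.88 in HCC4, 5.35 in HCC2.1 and 5.56 in HCC2.4. HCC1 and HCC4 were the highest of the 8 lines and HCC2.1 and HCC2.4 the lowest, so the HCC lines lay on both sides of all ICC lines. The difference between the types was 0.32 (95% interval -0.60 to 1.23; limma, adjusted p = 0.771).

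The second Sox4 probe set, which was not used because its mean was lower, had a different pattern. It measured 7.93 in ICC9, 7.96 in ICC10, 7.57 in ICC2.7 and 8.10 in ICC2.9, and 8.64 in HCC1, 8.10 in HCC4, 8.47 in HCC2.1 and 8.66 in HCC2.4. HCC1 stood with HCC2.1 and HCC2.4 here, and the types met only at 8.10, in ICC2.9 and HCC4. The difference between the types was -0.58, against -0.40 in the probe set used. Both probe sets gave lower signal in ICC lines on average, but of these 2 only the one used set HCC2.1 and HCC2.4 apart from HCC1.

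Sox12 followed the sex labels more closely than the tumour type. It measured 6.15 in ICC9, 6.08 in ICC10, 6.39 in HCC2.1 and 6.27 in HCC2.4, the female-labelled lines, and 6.85 in ICC2.7, 6.67 in ICC2.9, 6.88 in HCC1 and 6.54 in HCC4, the male-labelled lines. The sexes did not overlap. Between the types Sox12 averaged 6.44 ± 0.38 for ICC and 6.52 ± 0.26 for HCC (SD over 4 lines each; limma, adjusted p = 0.895).

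In the SoxD group, Sox5 stood apart. Sox5 and Sox6 lack an activation domain of their own and act with Sox9 on cartilage genes. Sox5 measured 7.12 in ICC9, 6.58 in ICC10, 7.87 in ICC2.7 and 7.55 in ICC2.9, and 5.79 in HCC1, 5.97 in HCC4, 6.39 in HCC2.1 and 6.55 in HCC2.4. All 4 ICC lines lay above all 4 HCC lines, but ICC10 and HCC2.4 were nearly equal. The difference was 1.11 (SE 0.28, limma, unadjusted p = 0.00353, adjusted p = 0.146). It was 1.83 within the male-labelled lines and 0.38 within the female-labelled lines. In a fit of the male-labelled lines alone, 2 per type, Sox5 passed the threshold (limma, adjusted p = 0.0233), as did 0.902% of all genes. It also passed with a covariate, chosen after seeing the data, for whether the line name has a 2 after the type (limma, adjusted p = 0.0304), where 0.582% of all genes were called.

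Some markers of mesenchymal cells were high in the same lines as Sox5, while Des and others were not. Over 8 such markers (Vim, Pdgfrb, Col1a1, Col1a2, Des, Acta2, Lrat and Dcn) the mean log2 signal was 6.57 to 7.60 in ICC and 6.59 to 6.96 in HCC lines, and it was highest in ICC2.7 (7.60) and ICC2.9 (7.26), where Sox5 was highest too. Des, the muscle filament desmin, ran the other way: it measured 4.97 to 5.44 in ICC lines, 6.86 in HCC1 and 6.04 in HCC4, the lines with the lowest Sox5, and 5.37 to 5.77 in HCC2.1 and HCC2.4 (ICC minus HCC -0.87, limma, adjusted p = 0.23). Pdgfrb, the receptor for platelet-derived growth factor B, measured 10.55 in ICC2.7, 9.89 in ICC2.9 and 6.66 to 8.41 in the other lines. Col1a1 and Acta2 were also highest in ICC2.7 and ICC2.9. Col1a2 was as high in HCC4 (6.78), where Sox5 was low, as in ICC2.7 (6.69) and ICC2.9 (6.77). Vim lay at 13.40 to 13.58 in all lines. The stellate cell gene Lrat and the matrix gene Dcn stayed within 4.42 to 4.65 and 3.11 to 3.39. Acta2, smooth muscle actin, was the 1 marker of the list that limma called in any of the 3 tests. It was lower in female-labelled lines (-0.52, SE 0.11, limma, adjusted p = 0.046), in the test that called 2.94% of all genes. The part of these markers in the difference of Sox5 was not tested.

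The other SoxD genes, Sox6 and Sox13, differed less in size. Sox6 measured 4.56 to 4.73 in ICC and 4.21 to 4.54 in HCC lines, without overlap, a difference of 0.19 (SE 0.10, limma, adjusted p = 0.424). HCC2.1 was the lowest line and the other HCC lines lay at 4.48 to 4.54. Sox13 averaged 6.26 ± 0.24 for ICC and 6.36 ± 0.17 for HCC (SD over 4 lines each; limma, adjusted p = 0.81). By sex Sox13 did not overlap, at 6.41 to 6.51 in female-labelled and 5.97 to 6.38 in male-labelled lines.

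Sox2, a regulator of pluripotent and neural stem cells and of squamous epithelium, varied most, with a standard deviation of 0.78 over the 8 lines. It measured 7.40 in ICC9, 8.17 in ICC10, 6.28 in ICC2.7 and 6.67 in ICC2.9, and 7.51 in HCC1, 6.02 in HCC4, 6.56 in HCC2.1 and 6.03 in HCC2.4. High signal was found in ICC10, HCC1 and ICC9, which belong to both types and both sexes. HCC1 and HCC4, of the same type and sex, differed more in Sox2 than the other 3 pairs of lines that share type and sex, and the difference between the types was 0.60 (95% interval -0.43 to 1.63; limma, adjusted p = 0.594). The Sox2 gene lies inside the long non-coding gene Sox2ot in the RefSeq annotation. The strand the probe set reads is not given in the sources used here, and the probe set for Sox2ot names another gene as well and was not used.

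The 3 genes most like Sox2 were Wnt7b, a Wnt ligand (Pearson r = 0.969), Khdrbs2, an RNA-binding protein (r = 0.941), and Fgf13, an intracellular member of the fibroblast growth factor family (r = 0.917), by the same rule over 8 lines and 2196 genes. Wnt7b measured 7.95 in ICC10, 7.22 in HCC1, 6.90 in ICC9 and 5.38 to 5.78 in the other 5 lines. The same 3 lines were therefore high for both genes. Markers of pluripotent and neural stem cells had a mean log2 signal of 5.96 to 6.08 in ICC and 5.89 to 6.19 in HCC lines over 6 genes, Sox2 included. Nes, an intermediate filament, lay at 9.68 to 10.82. Pou5f1 lay at 5.21 to 5.69 and Nanog at 3.97 to 4.75 in all lines.

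Sox18, which acts in blood vessel and lymphatic cells, averaged 4.62 ± 0.13 for ICC and 4.55 ± 0.13 for HCC (SD over 4 lines each; limma, adjusted p = 0.803), with a range of 0.41 over all lines. Over 9 endothelial markers (Pecam1, Cdh5, Kdr, Tek, Emcn, Erg, Sox7, Sox17 and Sox18) the mean log2 signal was 4.59 to 4.71 in ICC and 4.68 to 4.79 in HCC lines. Signal over background was not assessed for any member, so it is not known which of them were detected.

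The other 10 genes of the family (Sox1, Sox3, Sox7, Sox8, Sox14, Sox15, Sox17, Sox21, Sox30 and Sry) varied little. None of them had a range of 1 log2 unit, against 16.3% of all genes, the widest being 0.65 for Sox3 and the narrowest 0.20 for Sox14. Limma called 0 of the 10 between the types, against 0.261% of all genes. At an unadjusted p under 0.05 stood 0, against 14.1% of all genes, and the smallest adjusted p was 0.397, for Sox30. Sry, the sex-determining gene on the Y chromosome, measured 5.17 to 5.55 in female-labelled lines and 5.19 to 5.64 in male-labelled lines, so the sexes overlapped in Sry although they did not in the 3 other Y-linked genes. Among genes named after a SOX gene, Sox1ot lay at 4.69 to 5.08 and Sox5os3, a non-coding gene inside Sox5, at 4.39 to 5.17, with ICC2.7, where Sox5 was highest, at 4.41.

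**Figure D3:**
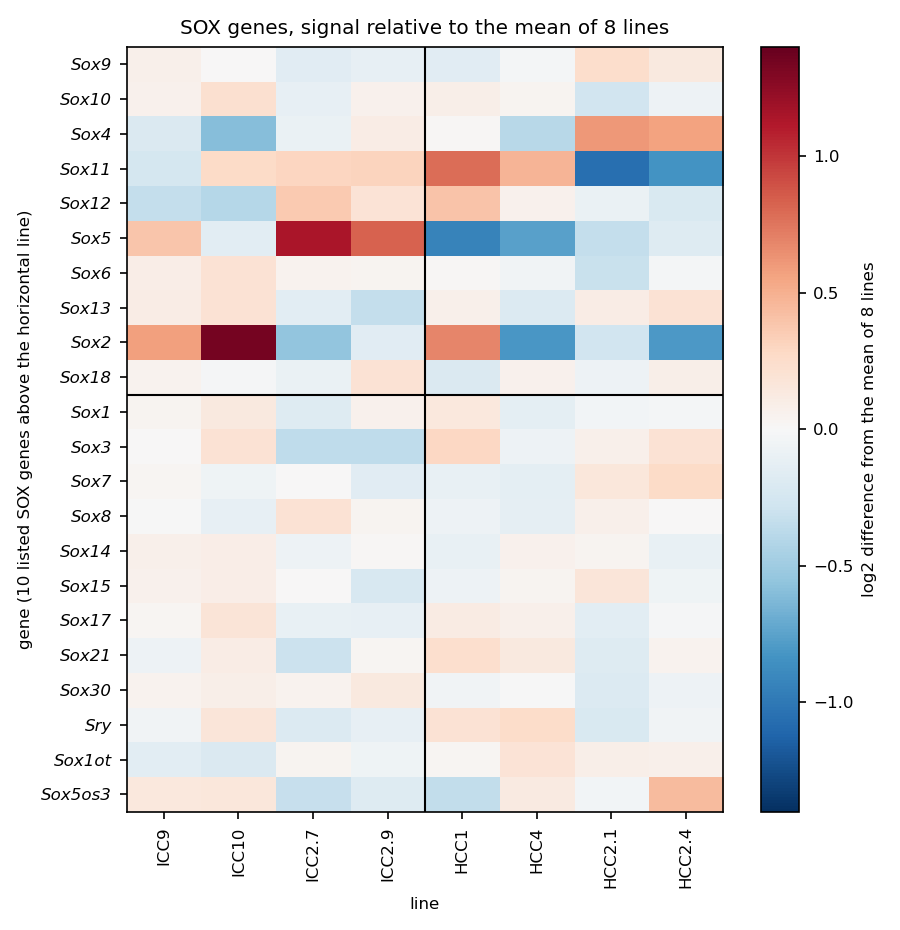
Log2 signal relative to the mean of the 8 lines (colour, red higher and blue lower) for the 10 listed SOX genes above the horizontal line and the other 10 family genes with Sox1ot and Sox5os3 below it (y axis), in each line (x axis, ICC left and HCC right of the vertical line). The deep colours are those of Sox2, Sox5, Sox11 and Sox4; no other family gene below the line has a range over 0.65, and Sox5os3 has 0.78.

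Female- and male-labelled lines were compared with tumour type in the model, which addresses variation within the types. Limma called 0 of the 10 members, where it called 2.94% of all genes, and 4 members had an unadjusted p under 0.05 (Sox9, Sox11, Sox12 and Sox13), against 17.5% of all genes. In these same 4 members the sexes did not overlap, against 8.76% of all genes; male-labelled lines were higher in 2 of them (Sox11 and Sox12), as they were in 4.35% of all genes. Sox12 was closest to the threshold, 1.43-fold lower in female-labelled lines (difference -0.51, SE 0.11, limma, adjusted p = 0.0504), and Sox11 differed by -0.94 (SE 0.26, limma, adjusted p = 0.113). Sox9 and Sox13 differed by 0.23 and 0.30, higher in female-labelled lines. Among 14 other settings Sox12 passed the threshold in 4, and its adjusted p (limma) ran from 0.0159 without HCC4 to 0.218. In those 4 settings 2.97% to 7.74% of the genes tested were called. With the missing direction in the model the adjusted p (limma) of Sox12 was 0.129. None of the 14 settings allowed for likeness between lines of 1 type and sex. Sox11 passed without ICC10 (limma, adjusted p = 0.043), where 1.74% of all genes were called.

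The difference between the types was then compared between the sexes (an interaction term). Lines whose names begin with a 2 after the type are male-labelled in ICC and female-labelled in HCC, so the interaction and this naming cannot be told apart. Limma called 0 of the 10 members and 0% of all genes, with an unadjusted p under 0.05 in 4 members (Sox5, Sox11, Sox4 and Sox2), against 20.1% of all genes. The sign of ICC minus HCC was opposite in the sexes for 5 members (Sox10, Sox4, Sox11, Sox12 and Sox2), against 47.5% of all genes. For Sox4 this holds for the probe set used only, since the second averaged lower in ICC lines of both sexes. Sox5 differed by 0.38 in female- and 1.83 in male-labelled lines (interaction -1.45, SE 0.28, limma, adjusted p = 0.113). Sox4 differed by -0.98 and 0.19 (interaction -1.18, SE 0.26, limma, adjusted p = 0.115) and Sox11 by 0.96 and -0.32 (interaction 1.28, SE 0.27, limma, adjusted p = 0.114). Sox2 differed by 1.49 and -0.29 (interaction 1.78, SE 0.68, limma, adjusted p = 0.207).

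With the missing direction in the model the interaction of Sox5 passed (-1.65, limma, adjusted p = 0.0432). That fit called 1.15% of all genes, against 0% in the main fit. Without ICC9, which leaves 1 female-labelled ICC line, the interaction was -1.72 for Sox5 and 1.54 for Sox11. For Sox4 the second probe set gave an interaction of -0.08, so the value of -1.18 rests on the probe set used. In HCC2.1 and HCC2.4, the lines with high Sox4 and low Sox11, the hepatocyte genes Apob (8.80 and 8.79, against 3.69 to 5.34 in the other lines) and Hnf4a (7.26 and 7.06, against 5.32 to 5.92) were high too. Over 8 hepatocyte markers the mean log2 signal was 5.44 and 5.56 in these lines and 4.61 to 4.86 in the other 6. Other markers of the list did not follow: Cyp2e1 was lowest in HCC2.1 (4.53) and HCC2.4 (4.51), against 4.63 to 4.89 elsewhere, and both lines lay within the range of the others for Ttr (4.73 to 5.19) and Apoa1 (5.03 to 5.94). Alb measured 4.12 to 4.64 over all lines. The part of these markers in the values of Sox4 and Sox11 was not tested.

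**Figure D4:**
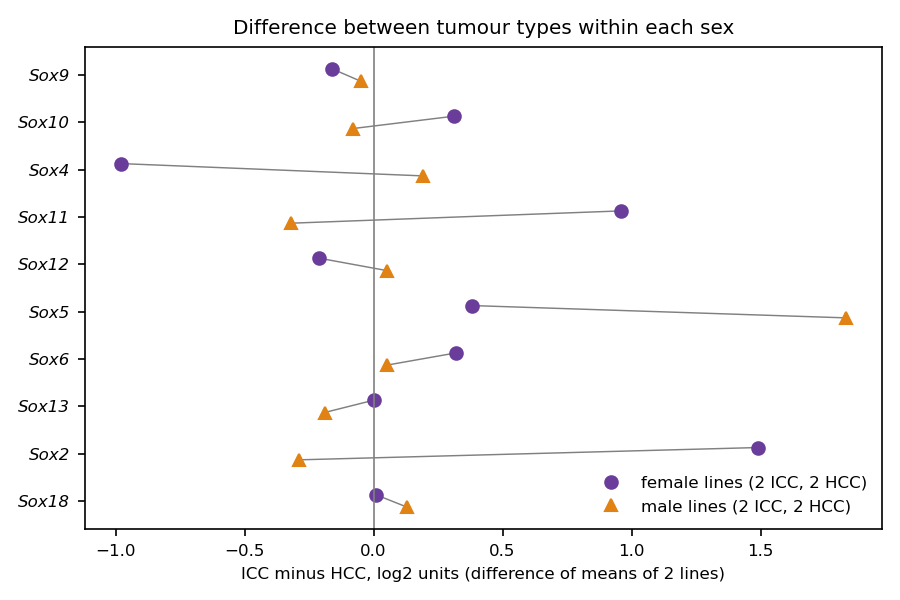
Difference of ICC minus HCC in log2 units (x axis) within female-labelled lines (circles) and within male-labelled lines (triangles), each from 2 lines per type, for the 10 SOX genes (y axis). The symbols of Sox2 (1.49 and -0.29), Sox5 (0.38 and 1.83), Sox11 (0.96 and -0.32) and Sox4 (-0.98 and 0.19) lie far apart, and those of Sox9 (-0.16 and -0.05) lie close together.

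Genes around Sox9 were counted in lists by function, first those of the Notch and Hippo pathways upstream of it, outputs of these pathways included. Of 11 Notch pathway genes limma called 0 between the types (1 at an unadjusted p under 0.05, against 14.1% of all genes, median difference -0.05), 3 between the sexes (against 2.94% of all genes) and 0 in the interaction. The Notch ligands Jag1 (1.13, SE 0.17, limma, adjusted p = 0.0147) and Dll1 (0.83, SE 0.12, limma, adjusted p = 0.0135) were higher in female-labelled lines, and the receptor Notch3 was lower (-0.65, SE 0.11, limma, adjusted p = 0.0243). Jag1 measured 12.09 in HCC2.1, 12.12 in HCC2.4, 11.63 in ICC9, 11.62 in ICC10 and 10.37 to 11.22 in the male-labelled lines, an order in which the female-labelled lines stand highest, as for Sox9. Jag2, another ligand, had the smallest p of the list between the types (difference -0.99, limma, adjusted p = 0.346), with ICC2.9 lowest at 6.74 and the HCC lines at 8.79 to 9.08.

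Of 16 measured Hippo pathway genes limma called 0 in each of the 3 tests, with 4 at an unadjusted p under 0.05 between the types (all genes 14.1%), 2 between the sexes (17.5%) and 6 in the interaction (20.1%), and a median difference between the types of 0.02. Ccn2, a target of the Hippo effector Yap1, differed most, at 8.27 to 9.62 in ICC and 10.15 to 11.07 in HCC lines without overlap (difference -1.62, limma, adjusted p = 0.0806). Wwtr1, the effector also called TAZ, lay at 10.52 to 10.64 in ICC and 10.25 to 10.38 in HCC lines (difference 0.30, limma, adjusted p = 0.136).

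Bile duct genes, of the cell type that Sox9 marks in the liver, were called between the sexes and not between the types. Of 12 measured, limma called 0 between the types (3 at an unadjusted p under 0.05, against 14.1% of all genes, median difference -0.18) and 3 between the sexes (against 2.94% of all genes), all higher in female-labelled lines, with a median difference of 0.47 against 0.01 over all genes; in the interaction it called 0. The 3 were the duct keratin Krt19 (2.19, SE 0.24, limma, adjusted p = 0.00483), the surface protein Cd24a (0.75, SE 0.08, limma, adjusted p = 0.00461) and the transcription factor Onecut2 (1.47, SE 0.21, limma, adjusted p = 0.0116). Prom1, a progenitor surface marker, had the smallest unadjusted p between the types (difference -0.45, limma, adjusted p = 0.294). Among cholangiocyte markers Krt7 lay at 5.84 to 6.04, Epcam at 4.14 to 5.12, Prom1 at 2.84 to 3.84 and Cftr at 2.88 to 3.75. The mean log2 signal of the 6 measured, Sox9 included, was 5.77 to 6.42 in ICC and 5.64 to 6.31 in HCC lines.

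Among genes downstream of SOX factors few differed. Of 12 cartilage genes that Sox9 activates with Sox5 and Sox6, limma called 0 in each of the 3 tests. Between the types 0 had an unadjusted p under 0.05, against 14.1% of all genes (median difference -0.07). Comp (difference 0.18, limma, adjusted p = 0.385) and Col11a1 (0.39, limma, adjusted p = 0.442), a cartilage glycoprotein and a collagen chain, had the smallest p between the types. Col11a1 measured 5.74 in ICC2.7 and 5.35 in ICC2.9, the lines with the highest Sox5, and 4.60 to 5.17 in the others. Of 5 targets of Sox4 and Sox11 limma called 0 between the types and 1 between the sexes, against 0.261% and 2.94% of all genes. The 1 was Tubb3, a neuronal tubulin, lower in female-labelled lines (-0.43, SE 0.09, limma, adjusted p = 0.0488). All 5 had a positive difference between the types (median 0.33, against 0.00 over all genes), with Ezh2, a histone methyltransferase, at 0.44 (limma, adjusted p = 0.487). Of 7 Wnt partners of SOX factors limma called 0 between the types. At an unadjusted p under 0.05 stood 1, Nkd1 (difference 0.45, limma, adjusted p = 0.188), against 14.1% of all genes. Between the sexes limma called 1, against 2.94% of all genes. This was the repressor Tcf7l1, lower in female-labelled lines (-0.73, SE 0.15, limma, adjusted p = 0.0447).

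Markers of 2 other cell types complete the check of what the lines may hold. Over 5 measured glial and neural crest markers the mean log2 signal was 5.51 to 6.56 in ICC and 5.67 to 5.95 in HCC lines. S100b, a calcium-binding protein, measured 8.13 in ICC9 and 8.93 in ICC10, 6.47 to 6.72 in HCC2.1 and HCC2.4 and 4.25 to 4.96 in the male-labelled lines (female minus male 2.83, limma, adjusted p = 0.016), while Sox10 itself stayed within 0.49 log2 units. Over 5 measured immune markers the mean log2 signal was 4.88 to 5.53 in ICC and 5.31 to 5.53 in HCC lines. Cd68, a lysosomal protein, measured 7.31 in ICC2.7 and 7.98 in ICC2.9, where Sox5 was highest, 10.21 in HCC1 and 10.15 in HCC4, where Sox5 was lowest, and 9.01 to 10.04 in the other 4 lines. Cd3e, a T cell receptor subunit, did not overlap between the types, at 4.32 to 4.36 in ICC and 4.60 to 4.83 in HCC lines (limma, adjusted p = 0.0899). The part of these markers in the values of Sox5 was not tested. Ptprc, the pan-leukocyte gene, lay at 3.40 to 3.99.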

How the data were processed

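Affymetrix arrays of 8 lines were read from the deposited table of log2 values, which the authors made with RMA in the oligo package per the submitters' processing notes (versions not given in the sources used here). It holds 39993 probe sets without missing values; 23521 name exactly 1 gene, 1814 several and 14658 none here. Array medians lay between 5.02 and 5.09. Precision is limited by having 8 arrays.

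From these values 1 probe set per gene was kept, with no filter on dim probe sets, and 3 fits over 22180 genes were made with limma 3.58.1 (R 4.3.3), using its moderated two-sided test and Benjamini-Hochberg adjustment over all genes at a threshold of 0.05: ICC against HCC without covariate, sex with type, and their interaction. Values after ± are standard deviations over lines. The fits were tested on simulated data with independent lines, without likeness between lines of 1 type and sex and without the missing direction. The simulation therefore cannot show how far these affect the p-values. The members and gene lists were chosen with earlier results of these data known. Named genes are all SOX genes and, per list, those called in any test plus the 2 with the smallest p between types; similar genes are the 3 with the highest r to Sox9 and to the member with the largest standard deviation. Lists compared by counts are Notch, Hippo, bile duct, cartilage, Sox4 and Sox11 target, Wnt partner and 7 marker lists. Marker genes are given by their range; the examples printed from the marker lists were picked after their values were seen. Some listed genes are not reported here. Alternatives were a trended robust prior, a filter at the median gene, quantile normalization, median centring, the mean of probe sets, covariates, a random block, averaging, single sexes and leaving out each line. Single-member values of the sex and interaction tests under these were added after seeing the data, as was a covariate for line names with a 2. The random block, averaging and single sexes were run for ICC against HCC alone. The sex and interaction tests thus had no setting that allows for likeness between lines of 1 type and sex.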

Additional observations from a re-analysis of the deposited data

Results flagged for a closer look

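Sox11 in ICC9 measured 6.15, apart from the other ICC lines at 6.67 to 6.71. It was the 1 value among 20 groups (10 genes in 2 types) in which the highest or lowest line lay apart from the rest by Dixon's test at the 95% level, and chance gives about 1 such value in 20 groups. ICC9 is also the line with the largest weight in the missing direction. Its value follows from those of the other 7 lines to within rounding, so it cannot be taken as independent of them. Without ICC9 the interaction of Sox11 was 1.54, against 1.28 with all lines.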

How the results depend on the processing

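The count of members called between ICC and HCC stayed at 0 in 18 of 21 alternatives. It was 1 in female lines alone (Sox4, -0.98, adjusted p = 0.0459, with 3.14% of all genes called), 1 in male lines alone (Sox5, limma, adjusted p = 0.0233, 0.902%) and 1 with the line name as a covariate (Sox5, adjusted p = 0.0304, 0.582%), an alternative added after seeing the data. The fits of a single sex rest on 2 lines per type. Between the sexes the count was 1 (Sox12) with trend and robust settings, where 3.3% of all genes were called. It was also 1 (Sox12) with genes above the median level (7.74% of the genes kept) and with the mean of probe sets (2.97%). On leaving out a line it was 0 to 1, with Sox11 called without ICC10 (1.74% of all genes) and Sox12 without HCC4 (4.13%). For the interaction the count was 1 (Sox5) with the missing direction in the model. That fit called 1.15% of all genes, against 0% in the main fit. Leaving out a line leaves only 1 line of its type and sex, so no count is given for the interaction there. The cause was not tested. Male lines alone turned the sign of ICC minus HCC for Sox10 (-0.09), Sox11 (-0.32), Sox12 (0.05), Sox2 (-0.29) and Sox4 (0.19), and leaving out a line turned Sox12 (-0.22 to 0.04). The turn of Sox4 is that of the probe set used, as the second averaged lower in ICC lines among male lines too. Sox5 stayed higher in ICC lines in all 21 alternatives, from 0.38 to 1.83, with adjusted p (limma) from 0.0233 to 0.921. Its types do not overlap, so leaving out a line, averaging or taking a single sex could not turn the sign. The trended robust prior, the filter at the median gene and the random block could not change the estimate of Sox5. Neither could the mean of probe sets, as Sox5 has 1, nor the sex or line name covariate, which are balanced over the types. With the lines of 1 type and sex averaged the adjusted p of Sox5 was 0.921, and with them as a random block (consensus correlation 0.398) it was 0.416. No paired analysis was possible because the line names give the types no shared replicate numbers, although names with a 2 occur in both types.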
